A study of Mus musculus with 8 samples.

Results

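The mitochondrial ribosome of mouse brown fat was followed through the 78 protein-coding genes whose symbols are Mrpl or Mrps with a number, together with Dap3, out of 41388 genes in all. They were chosen by symbol. The 48 Mrpl genes are named for the large subunit, and the 30 other genes for the small subunit. The annotation holds 79 such genes, and Mrpl33 was not analysed here. Gene counts came from rRNA-depleted total RNA of brown adipose tissue of 8 C57BL/6J mice on regular chow at room temperature. In 4 mice (ANKO), an adiponectin-Cre transgene was combined with a floxed Nampt gene, so that the deletion is directed to cells in which the adiponectin promoter is active, which are adipocytes, and other cells of the tissue keep the gene. The 4 control mice (WT) were flox/flox animals labelled wild type. Nampt makes nicotinamide mononucleotide, a precursor of NAD+, and the design asks which transcripts differ when adipocytes lack it.

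Mitochondrial ribosomes translate the few proteins encoded by mitochondrial DNA, all of them parts of the respiratory chain and ATP synthase. Their RNAs come from mitochondrial DNA, whereas every ribosomal protein is encoded in the nucleus, made in the cytosol and imported. The large subunit holds the peptidyl transferase centre, and the small subunit binds and decodes the mRNA. Brown adipocytes are rich in mitochondria and burn fuel for heat through the respiratory chain and the uncoupling protein Ucp1.

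Libraries held 5738067 to 26426476 gene counts in ANKO and 21771276 to 49697156 in WT, and 3 counts, the limit that a count of 0 allows, were 0.0604 to 0.523 CPM of the whole library total, counting error only. All other CPM values, except those of mitochondrial rRNA, are relative to library sizes without rRNA that were scaled by TMM. Nampt itself was at 72.3 ± 4.67 CPM in the 4 ANKO mice, against 508 ± 42.2 CPM in the 4 WT mice (mean ± SD; edgeR log2 fold change -2.81, adjusted p = 1.51e-07). The tissue label was checked against markers of cells that a brown fat dissection can hold. Of 10 brown adipocyte markers 9 were lower, with a summed level of 1059 to 3775 CPM in ANKO and 7354 to 15269 CPM in WT. Ucp1 itself had 1673, 1550, 872 and 317 CPM in ANKO1 to ANKO4, against 3369, 4170, 8829 and 7430 CPM in WT1 to WT4. Of 24 skeletal muscle markers 20 were higher and 4 missed the threshold, with a summed level of 38537 to 50182 CPM in ANKO and 3533, 9856, 390 and 185 CPM in WT1 to WT4. Of 20 macrophage markers 19 were higher, with a sum of 1740 to 2538 CPM in ANKO and 210 to 308 CPM in WT. None of the markers of these 3 lists was at 0 in all libraries. Of 15 tested lymphocyte markers 14 were higher, and Ptprcap was at 0 in all libraries. All 10 general adipocyte markers were lower, and 9 of 10 fibroblast markers were higher. Of 10 endothelial markers 5 were lower and 5 missed the threshold, with a median log2 fold change of -0.33. For comparison, 27.6% of all genes tested were lower and 30.6% were higher. Examples are the muscle genes Tnnc2 (log2 fold change 4.50) and Myl1 (2.02), the macrophage genes Mpeg1 (4.39) and Adgre1 (3.32), the lymphocyte genes Il2rb (3.59) and Lck (3.31) and the fibroblast genes Dpt (1.53) and Lum (2.12), all higher. Lower were the brown adipocyte genes Slc27a2 (-3.70) and Prdm16 (-1.20), the adipocyte genes Cfd (-3.40) and Car3 (-1.404) and the endothelial genes Kdr (-0.97) and Flt1 (-0.83). These examples are the 2 called genes of each list with the smallest adjusted p, and need not stand for their list. The median log2 fold change of the 24 muscle markers was 3.73, and Tnnc2 had only 2, 5, 0 and 1 counts in WT1 to WT4. Marker levels of several cell types thus differed with genotype, and the part of these markers in the results on ribosomal protein genes was not tested beyond the fits given here. In bulk tissue, fewer cells of a type and less RNA per cell cannot be told apart.

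Mitoribosomal protein genes were lower in ANKO brown fat across both subunits. Of the 76 genes that passed the filter on low counts, 70 fell, 0 rose and 6 missed the threshold. The test was edgeR's quasi-likelihood test with Benjamini-Hochberg adjustment over the 16705 genes tested, called at an adjusted p under 0.05. Over all genes tested, 27.6% fell and 30.6% rose, 58.2% in either direction. The median log2 fold change of the 76 genes was -0.77, with an interquartile range of -0.91 to -0.55, against a median of -0.01 over all genes tested. The extremes were -1.42 and 0.03, and 75 of 76 values were negative. In 67 genes every ANKO library lay below every WT library, which was so for 26.4% of all genes tested. At least 1 log2 unit was lost by 12 of the 76, against 7.24% of all genes tested. The background share depended on expression level. Among the genes whose WT mean lay in the interquartile range of these tested genes, 31.2 to 74.6 CPM, 45.9% fell, with a median of -0.23.

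**Figure D1:**
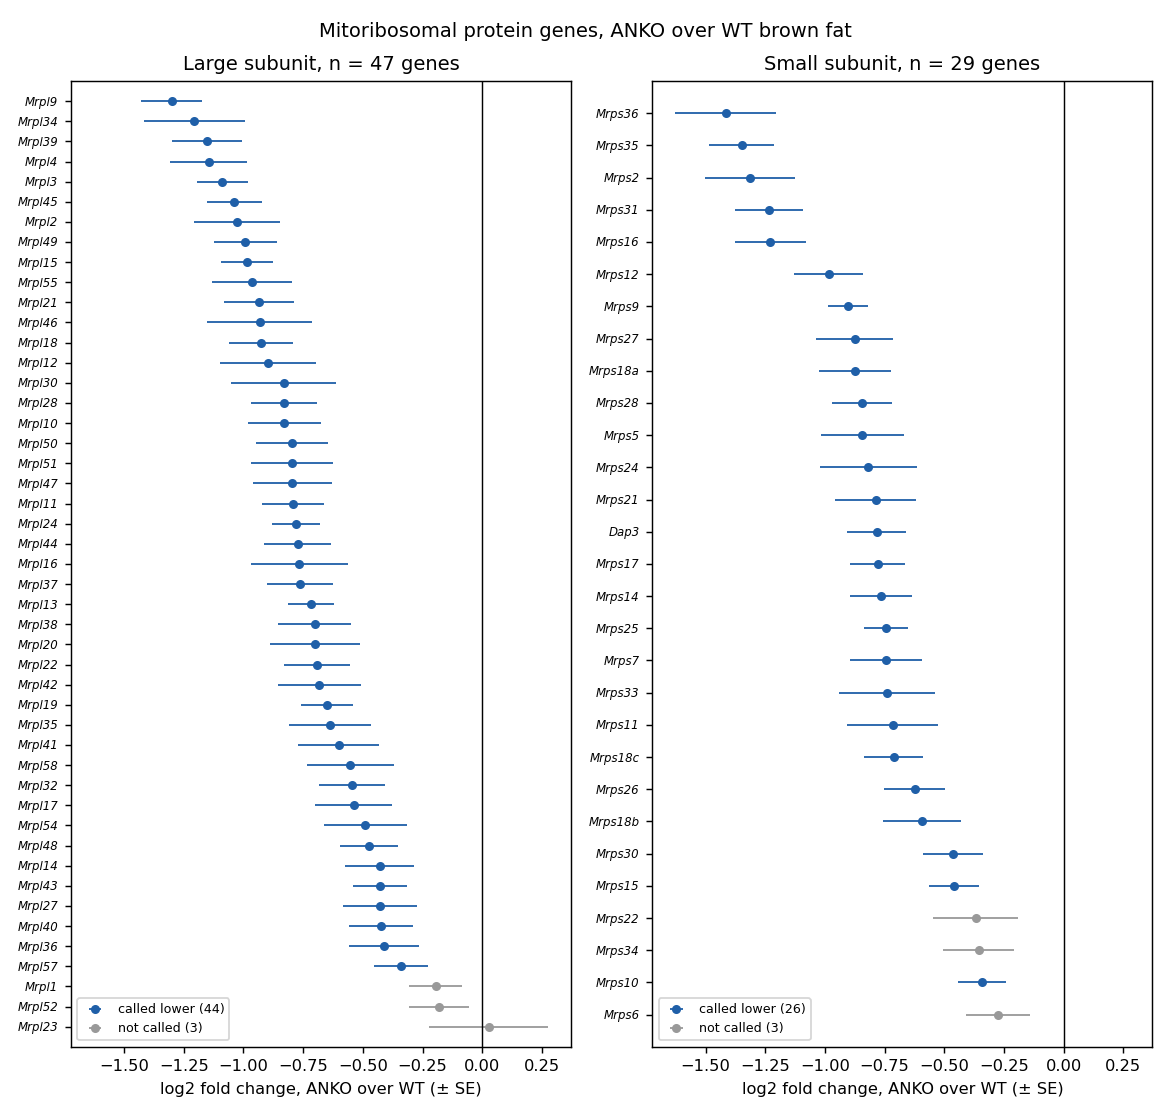
Log2 fold change, ANKO over WT, of the 76 tested mitoribosomal protein genes (points; bars are ± 1 standard error), large subunit left and small subunit right, ordered by fold change. Blue genes passed the test and grey genes did not; all but Mrpl23 lie left of 0.

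Of the 12 genes that lost at least 1 log2 unit, 7 were named for the large and 5 for the small subunit. The 6 with the largest falls are given first. Mrps36 (ENSMUSG00000061474, chr13:100735955-100744659, GRCm38) had 5.93, 6.80, 5.01 and 2.91 CPM in ANKO1 to ANKO4, against 11.9, 14.02, 15.2 and 14.9 CPM in WT1 to WT4 (log2 fold change -1.42, SE 0.21, adjusted p = 0.000295; edgeR for this and the next values). Every ANKO value was below every WT value, and ANKO kept 37.5% of the WT level. Mrps36 was first listed with the small subunit, and later work places its product in the 2-oxoglutarate dehydrogenase complex of the citric acid cycle. Mrps35 (ENSMUSG00000040112, chr6:147042764-147073991), a small subunit protein without a bacterial counterpart, had 38.1, 38.03, 32.4 and 24.2 CPM in ANKO1 to ANKO4, against 79.8, 87.4, 90.5 and 82.04 CPM in WT1 to WT4 (log2 fold change -1.35, SE 0.14, adjusted p = 2.34e-05). Mrps2 (ENSMUSG00000035772, chr2:28468066-28471178), which has a bacterial counterpart, had 37.7, 38.03, 29.04 and 21.9 CPM in ANKO1 to ANKO4, against 63.5, 71.1, 95.5 and 86.4 CPM in WT1 to WT4 (log2 fold change -1.31, SE 0.19, adjusted p = 0.000219). In both genes the groups were apart, and ANKO4 was the lowest library.

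Mrpl9 (ENSMUSG00000028140, chr3:94443318-94451130), a large subunit protein with a bacterial counterpart, had the highest mean CPM of all 78 genes in WT. It had 63.3, 63.96, 54.6 and 43.3 CPM in ANKO1 to ANKO4, against 135, 132, 151 and 138 CPM in WT1 to WT4 (log2 fold change -1.30, SE 0.13, adjusted p = 1.69e-05). Its lowest WT library stood well above its highest ANKO library. Mrps31 (ENSMUSG00000031533, chr8:22411361-22429665), another protein of the small subunit without a bacterial counterpart, had 26.4, 25.7, 19.9 and 16.8 CPM in ANKO1 to ANKO4, against 46.8, 55.2, 54.1 and 53.9 CPM in WT1 to WT4 (log2 fold change -1.23, SE 0.14, adjusted p = 5.45e-05). Mrps16 (ENSMUSG00000049960, chr14:20389304-20393634), a conserved protein of the small subunit body, had 22.3, 26.5, 19.7 and 15.2 CPM in ANKO1 to ANKO4, against 43.6, 50.7, 51.05 and 51.5 CPM in WT1 to WT4 (log2 fold change -1.23, SE 0.15, adjusted p = 7.71e-05). Again no library of one group reached into the range of the other, and WT1 was the lowest of the WT libraries in both.

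The fall was spread over the libraries unevenly. The median over the tested genes, as log2 difference from the WT mean, was -0.58, -0.54, -0.81 and -1.16 in ANKO1 to ANKO4, and -0.16, -0.02, 0.10 and 0.08 in WT1 to WT4. ANKO4, which was lowest, was also the shallowest library and had the least of the brown adipocyte markers, with a sum of 1059 CPM. WT1 and WT2, the lower WT libraries, were those with more muscle marker RNA and less of the brown adipocyte markers. Together the 78 genes took 0.202% to 0.264% of the non-rRNA counts in ANKO and 0.340% to 0.390% in WT. The plot of each gene by library shows these differences gene by gene.

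**Figure D2:**
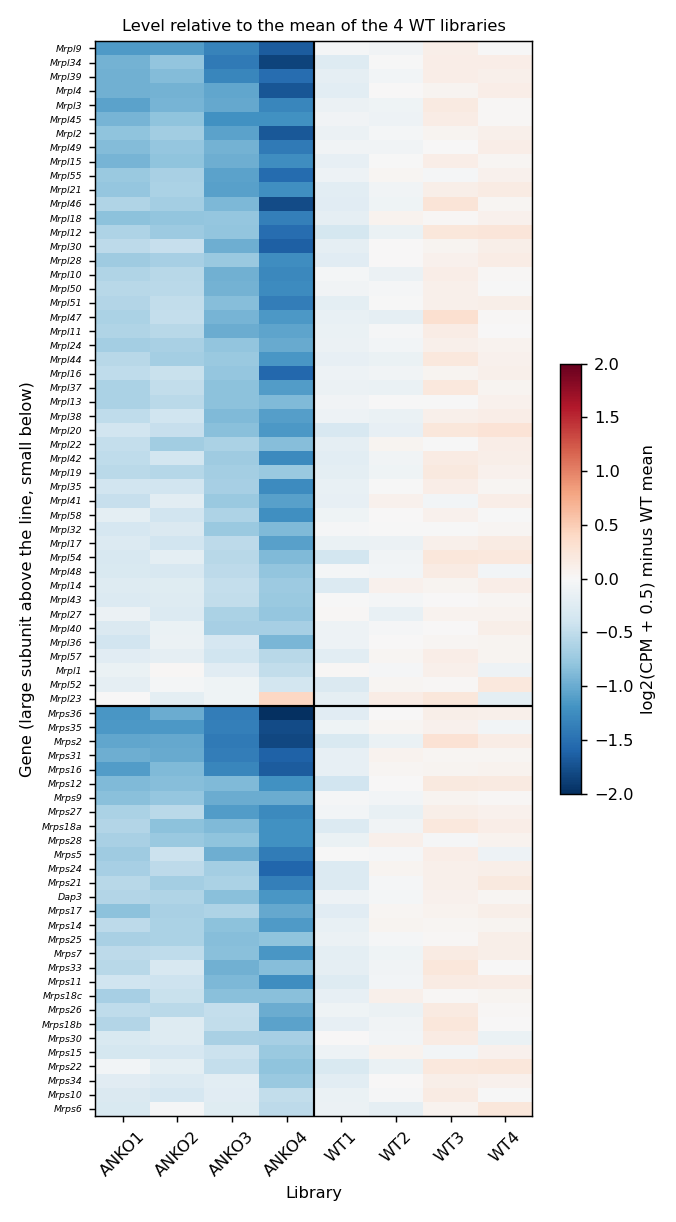
Level of each tested mitoribosomal protein gene (rows) in each library (columns), as log2(CPM + 0.5) minus the mean of the 4 WT libraries; blue is lower and red higher. ANKO4 is the darkest column and WT1 the bluest of the WT columns, while Mrpl23 does not follow the others.

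Read per length, as RPKM (CPM per kb of gene length), the order of levels was led by short large subunit genes. The length used is that of a gene's annotated exons, from 412 bases (Mrpl52) to 8079 (Mrps10). It can differ from the length of the RNA present, so orders, sums and ratios of RPKM depend on the annotation. Mrpl34, a small conserved protein of the large subunit, averaged 75.99 ± 24.3 RPKM in ANKO and 176 ± 21.4 RPKM in WT (SD, n = 4 each). In CPM it had 58.3, 65.2, 41.8 and 30.7 CPM in ANKO1 to ANKO4, against 94.3, 112, 124 and 124 CPM in WT1 to WT4 (log2 fold change -1.21, SE 0.21, adjusted p = 0.000817). Mrpl42, a large subunit protein without a bacterial counterpart, averaged 82.5 ± 20.7 RPKM in ANKO and 133 ± 15.6 RPKM in WT (SD, n = 4 each), with 62.03, 67.996, 53.4 and 36.3 CPM in ANKO1 to ANKO4, against 76.3, 83.4, 98.9 and 95.1 CPM in WT1 to WT4 (log2 fold change -0.68, SE 0.17, adjusted p = 0.00689). Mrpl34 was the highest gene in WT and Mrpl42 in ANKO, where their means lay within 1 SD of each other. Mrpl2, a conserved protein close to the peptidyl transferase centre, averaged 38.4 ± 10.7 RPKM in ANKO and 78.6 ± 5.06 RPKM in WT (SD, n = 4 each), with 52.2, 56.4, 43.2 and 27.97 CPM in ANKO1 to ANKO4, against 84.9, 89.5, 95.1 and 98.2 CPM in WT1 to WT4 (log2 fold change -1.03, SE 0.18, adjusted p = 0.000817). All 3 genes were apart between the groups.

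Among small subunit genes, Mrps16 was highest per length, at 36.96 ± 8.42 RPKM in ANKO and 86.95 ± 6.62 RPKM in WT (SD, n = 4 each). Mrps7, a conserved protein of the small subunit head, followed at 32.2 ± 6.58 RPKM in ANKO and 53.9 ± 6.16 RPKM in WT (SD, n = 4 each), and in CPM it had 77.1, 77.9, 62.3 and 49.2 CPM in ANKO1 to ANKO4, against 97.1, 105, 124 and 121 CPM in WT1 to WT4 (log2 fold change -0.74, SE 0.15, adjusted p = 0.00188). Mrps24 was next at 26.4 ± 7.61 RPKM in ANKO and 46.7 ± 5.73 RPKM in WT (SD, n = 4 each), with 42.9, 47.4, 42.1 and 22.3 CPM in ANKO1 to ANKO4, against 55.99, 70.8, 73.1 and 73.9 CPM in WT1 to WT4 (log2 fold change -0.82, SE 0.20, adjusted p = 0.00607). Mrps24 shares 226 exon bases with Urgcp on the same strand, so reads of the pair may be mixed. Mrpl52, which missed the threshold, ranked 3 in ANKO and 7 in WT, and Mrpl9 ranked 25 in ANKO and 11 in WT.

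The median change was close in the large and small subunits. Of 47 tested large subunit genes 44 fell, with a median log2 fold change of -0.77, and in 40 of the 47 the groups were apart. Of 29 tested small subunit genes 26 fell, with a median of -0.78. In 27 of the 29 the groups were apart, among them Mrps34, which was not called. Over all genes tested 27.6% fell, and in 26.4% every ANKO library lay below every WT library. The large minus small difference of these medians was 0.01. Taken library by library as medians of log2 differences from the WT mean, large minus small was 0.0432, 0.0471, 0.0476 and 4.74e-06 in ANKO1 to ANKO4, against 0.0105, -0.0144, -0.00727 and 0.00143 in WT1 to WT4. The SD of these values pooled within groups was 0.0180, and 3 of the 4 ANKO values lay above every WT value. Summed RPKM of the large subunit was 1057, 1113, 893 and 668 in ANKO1 to ANKO4, against 1441, 1581, 1742 and 1745 in WT1 to WT4. For the small subunit the sums were 403, 420, 360 and 275 in ANKO1 to ANKO4, and 574, 652, 701 and 698 in WT1 to WT4. Both sums were lower in each ANKO library than in any WT library. Their ratio, small over large, was 0.381, 0.377, 0.403 and 0.412 in ANKO and 0.398, 0.412, 0.403 and 0.400 in WT, so the groups overlapped. No p is given for these sums, since the genes were chosen with results known.

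**Figure D3:**
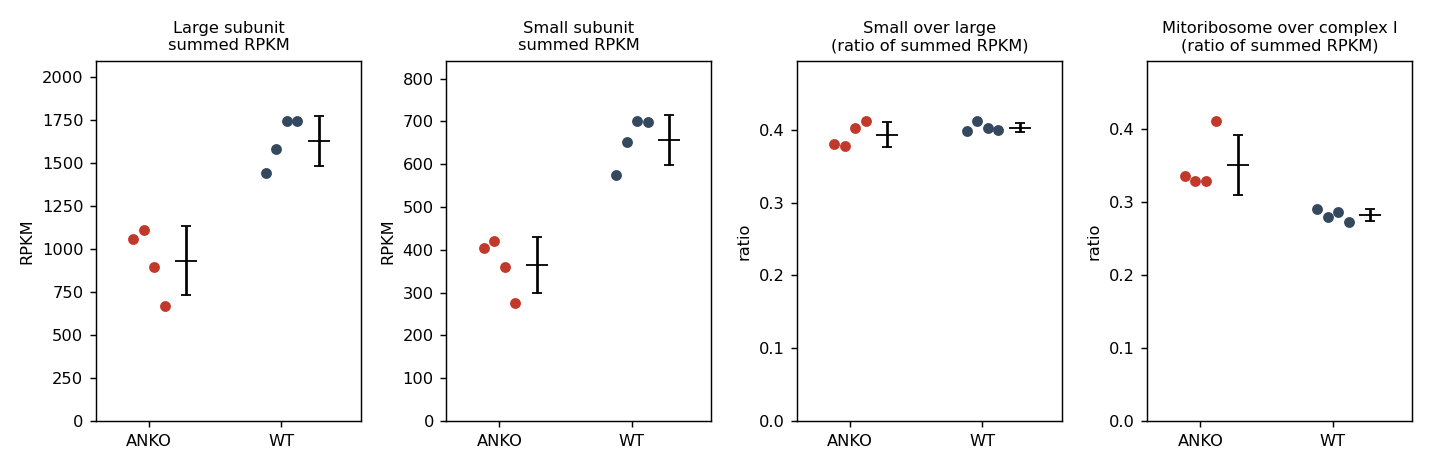
Summed RPKM of the 48 large and 30 small subunit genes, the ratio of the sums, and the ratio of all 78 genes to 35 complex I subunits, by library (points), with mean ± SD beside them (n = 4 each). The sums separate ANKO from WT, the ratio of the subunits does not, and ANKO4 stands apart at 0.410 in the last panel.

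The genes were also counted by descent. By the number in the symbol, an approximate rule, bacterial counterparts exist for 27 tested large subunit genes, of which 25 fell (median -0.78), and for 16 small subunit genes, of which 15 fell (median -0.77). Among the other genes, 19 of 20 in the large subunit (median -0.73) and 11 of 13 in the small subunit (median -0.78) fell. Structures place the products of Mrps18a and Mrps30 in the large subunit. With these moved and Mrps36 left out, 46 of 49 large and 23 of 26 small subunit genes fell, with medians of -0.77 and -0.77. Of all genes tested 27.6% fell.

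The stalk of the large subunit, which recruits the translation factors, is built from the products of Mrpl10, Mrpl11 and Mrpl12, and all 3 fell. For this and the other parts below, the share that fell over all genes tested was 27.6%. Mrpl12, the stalk protein that contacts the factors, had 31.8, 29.6, 28.4 and 16.8 CPM in ANKO1 to ANKO4, against 38.5, 45.02, 57.9 and 58.3 CPM in WT1 to WT4 (log2 fold change -0.90, SE 0.20, adjusted p = 0.00352). Mrpl10, which anchors it, had 56.7, 58.3, 44.2 and 34.8 CPM in ANKO1 to ANKO4, against 83.8, 79.1, 94.8 and 87.9 CPM in WT1 to WT4 (log2 fold change -0.83, SE 0.15, adjusted p = 0.00106). Mrpl11 at the stalk base had 30.2, 30.9, 22.9 and 21.7 CPM in ANKO1 to ANKO4, against 41.8, 45.3, 50.8 and 45.8 CPM in WT1 to WT4 (log2 fold change -0.79, SE 0.13, adjusted p = 0.000518). In each the highest ANKO value was below the lowest WT value. Around the exit tunnel, through which the new chain leaves, 4 of 5 genes fell (median -0.69), with Mrpl45, which holds the ribosome to the inner membrane, at -1.04 and Mrpl23 not called. In the central protuberance, the crest of the large subunit that faces the small one, 7 of 8 fell, with a median of -0.47. Its members ranged from Mrpl46 at -0.93 and Mrpl18 at -0.93 to Mrpl52 at -0.18. In the small subunit, all 5 conserved genes listed for the decoding region fell (median -0.76), from Mrps12 at -0.98 and Mrps9 at -0.90 to Mrps10 at -0.34.

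Mammals have 3 paralogous Mrps18 genes, related to a single bacterial protein, and all 3 fell. Mrps18a had 41.02, 34.7, 33.01 and 26.2 CPM in ANKO1 to ANKO4, against 50.6, 58.9, 71.4 and 67.5 CPM in WT1 to WT4 (log2 fold change -0.87, SE 0.15, adjusted p = 0.000665). Mrps18b had 14.5, 18.2, 15.5 and 10.2 CPM in ANKO1 to ANKO4, against 19.6, 20.8, 25.8 and 22.2 CPM in WT1 to WT4 (log2 fold change -0.59, SE 0.16, adjusted p = 0.0105), and shares 638 exon bases with the antisense gene Gm16279, which had 12 to 113 counts. Mrps18c had 11.6, 13.7, 10.3 and 10.3 CPM in ANKO1 to ANKO4, against 16.6, 20.1, 19.1 and 19.5 CPM in WT1 to WT4 (log2 fold change -0.71, SE 0.12, adjusted p = 0.000768). No pair of the 3 was tested against each other. Mrps30, the other Mrps gene whose product lies in the large subunit, had 24.1, 24.8, 18.8 and 18.5 CPM in ANKO1 to ANKO4, against 30.001, 28.7, 33.5 and 27.1 CPM in WT1 to WT4 (log2 fold change -0.46, SE 0.12, adjusted p = 0.00888). Dap3 (ENSMUSG00000068921, chr3:88920803-88951181), a GTP-binding protein of the small subunit first described in cell death, had 60.6, 59.8, 51.3 and 40.7 CPM in ANKO1 to ANKO4, against 85.5, 89.3, 97.6 and 94.1 CPM in WT1 to WT4 (log2 fold change -0.78, SE 0.13, adjusted p = 0.000437). Its exons share 352 bases with Ash1l on the other strand, and the strand setting of the counting is not given. Further genes given in full also share exon bases with a gene on the other strand. They include Mrps30 (623 with B430218F22Rik, 0 to 7 counts) and Mrpl12 (200 with Gm16755, 4 to 55 counts). Mrps7 shares 127 with Gga3 and 119 with Mif4gd, which had 251 to 5340 counts.

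The 6 genes that missed the threshold differed in how near they came. Mrps34 (small subunit) had 10.6, 10.3, 10.7 and 7.29 CPM in ANKO1 to ANKO4, against 10.7, 12.6, 13.5 and 13.2 CPM in WT1 to WT4 (log2 fold change -0.36, SE 0.15, adjusted p = 0.0605), with groups just apart. Its exons overlap Mapk8ip3 over 1309 bases and Nme3 over 763, and Nme3 had 0 counts in all libraries. Mrps22 (small subunit) had 32.03, 28.8, 23.7 and 18.8 CPM in ANKO1 to ANKO4, against 26.6, 30.1, 38.6 and 38.9 CPM in WT1 to WT4 (log2 fold change -0.37, SE 0.18, adjusted p = 0.101), and its groups overlapped. Mrps6, a conserved small subunit protein, had 19.9, 24.4, 20.996 and 17.2 CPM in ANKO1 to ANKO4, against 22.9, 21.7, 26.2 and 28.99 CPM in WT1 to WT4 (log2 fold change -0.28, SE 0.13, adjusted p = 0.0981), and it shares 159 exon bases with Slc5a3 on the same strand.

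The other 3 belong to the large subunit, and their groups overlapped too. Mrpl1, a protein at the tRNA exit side, had 28.7, 31.8, 26.95 and 22.3 CPM in ANKO1 to ANKO4, against 31.9, 31.1, 33.7 and 29.2 CPM in WT1 to WT4 (log2 fold change -0.20, SE 0.11, adjusted p = 0.160). Mrpl52 had 20.7, 22.8, 22.04 and 18.1 CPM in ANKO1 to ANKO4, against 19.2, 24.2, 24.04 and 27.4 CPM in WT1 to WT4 (log2 fold change -0.18, SE 0.13, adjusted p = 0.236). Mrpl23, the one positive value, was low throughout, with 1.53, 1.27, 1.42 and 2.19 CPM in ANKO1 to ANKO4, against 1.29, 1.75, 1.86 and 1.27 CPM in WT1 to WT4 (log2 fold change 0.03, SE 0.25, adjusted p = 0.947), and its sign turned negative in thinned counts, without a filter, with the muscle covariate and when ANKO4, WT1 or WT4 was left out. A p above the threshold does not show equal levels. Mrpl14, Mrpl27, Mrpl54 and Mrpl57 fell by the test although their groups overlapped, and they lost the call in several alternative fits.

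Mrpl53 and Mrps23 had too few counts to be tested. Mrpl53 had 2, 0, 0 and 0 counts in ANKO1 to ANKO4 and 5, 2, 5 and 9 in WT1 to WT4. It shares 695 of its 735 exon bases with Gm42688 on the same strand, which had 55 to 186 counts in ANKO and 193 to 265 in WT. Mrps23 had 6, 0, 1 and 0 counts in ANKO1 to ANKO4 and 2, 4, 15 and 6 in WT1 to WT4. Most ANKO libraries had at most 1 count of either gene, and no fold is given.

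Most genes listed for work with the ribosome fell as well, against 27.6% of all genes tested. The 2 genes given with levels from each list, here and below, are the called ones with the smallest adjusted p. They need not stand for their list. All 6 further proteins found in or on the assembled ribosome fell, with a median of -0.80. Oxa1l, the insertase that receives new chains at the inner membrane, averaged 61.2 ± 9.16 CPM in ANKO and 118 ± 10.1 CPM in WT (SD, n = 4 each; log2 fold change -0.94, SE 0.12, adjusted p = 0.000106). Gadd45gip1, a large subunit protein, averaged 16.1 ± 2.08 CPM in ANKO and 28.8 ± 3.87 CPM in WT (SD, n = 4 each; log2 fold change -0.84, SE 0.13, adjusted p = 0.000368). Of 27 assembly factors and rRNA-modifying enzymes 23 fell and 0 rose, with a median of -0.72. The small subunit assembly factor Rbfa averaged 32.99 ± 6.47 CPM in ANKO and 82.96 ± 6.14 CPM in WT (SD, n = 4 each; log2 fold change -1.32, SE 0.14, adjusted p = 3.09e-05). Mrm3, which methylates the large rRNA, averaged 12.2 ± 0.739 CPM in ANKO and 29.6 ± 4.81 CPM in WT (SD, n = 4 each; log2 fold change -1.27, SE 0.13, adjusted p = 2.65e-05). Ddx28 (-0.22), Mettl15 (-0.21), Ybey (-0.30) and Rpusd3 (-0.23) missed the threshold.

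Of 15 genes listed as translation factors or mRNA-binding proteins of the organelle, 11 fell and 0 rose, with a median of -0.82. Over all genes tested 27.6% fell. The role of each listed gene in mouse brown fat was not tested. The elongation factor Tufm averaged 11.99 ± 0.595 CPM in ANKO and 25.999 ± 2.37 CPM in WT (SD, n = 4 each; log2 fold change -1.11, SE 0.10, adjusted p = 1.27e-05). Its exchange factor Tsfm averaged 24.1 ± 5.02 CPM in ANKO and 49.3 ± 1.97 CPM in WT (SD, n = 4 each; log2 fold change -1.02, SE 0.14, adjusted p = 0.000156). Missing the threshold were Mtfmt (-0.18), which formylates the initiator tRNA, Mtrf1l (-0.15), a release factor, Slirp (-0.32), the partner of Lrpprc, and Mss51 (0.25). Reads on the ribosome's own RNAs remained after rRNA depletion and were left out of the fit. As a share of all counts, mt-Rnr1 was at 869 to 1278 CPM in ANKO and 2159 to 2551 CPM in WT, and mt-Rnr2 at 7128 to 10028 CPM in ANKO and 26014 to 32795 CPM in WT. Such values depend on the depletion in each library as well as on the RNA.

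The median change of the ribosomal genes lay between those of a pair of other large complexes, complex I and the cytosolic ribosome. Of 35 complex I genes, which encode the first enzyme of the respiratory chain, 34 fell, with a median of -1.09, against 27.6% of all genes tested. Ndufs7 averaged 147 ± 33.7 CPM in ANKO and 376 ± 46.8 CPM in WT (SD, n = 4 each; log2 fold change -1.35, SE 0.18, adjusted p = 0.000147), and Ndufb3 averaged 90.1 ± 20.6 CPM in ANKO and 213 ± 30.5 CPM in WT (SD, n = 4 each; log2 fold change -1.24, SE 0.18, adjusted p = 0.000199). The ratio of summed RPKM, mitoribosomal genes over complex I, was 0.335, 0.328, 0.328 and 0.410 in ANKO1 to ANKO4, against 0.290, 0.279, 0.286 and 0.272 in WT1 to WT4. Every ANKO ratio was above every WT ratio. Of 77 cytosolic ribosomal protein genes 9 fell and Rpl15 rose, with a median of -0.11. Over all genes tested 27.6% fell and 30.6% rose. Rpl27a averaged 14.4 ± 1.15 CPM in ANKO and 20.3 ± 1.0004 CPM in WT (SD, n = 4 each; log2 fold change -0.50, SE 0.10, adjusted p = 0.00171). Rpl23a averaged 0.162 ± 0.110 CPM in ANKO and 0.698 ± 0.168 CPM in WT (SD, n = 4 each; log2 fold change -1.88, SE 0.45, adjusted p = 0.00485). Rpl23a had only 6, 2, 2 and 0 counts in ANKO1 to ANKO4, against 15, 16, 17 and 40 in WT1 to WT4, so the size of its fold is uncertain. The ratio of mitoribosomal to cytosolic sums was 0.601, 0.618, 0.469 and 0.402 in ANKO1 to ANKO4, against 1.02, 0.871, 0.862 and 0.797 in WT1 to WT4. Cytosolic ribosomal genes have many near-identical pseudogenes and how reads with several positions were counted is not given, so their levels are uncertain. Pseudogenes of the mitoribosomal genes had 0 to 4 counts, which cannot show whether reads shared with their parent genes were counted or left out. These group differences are descriptions, and none was tested as a set.

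**Figure D4:**
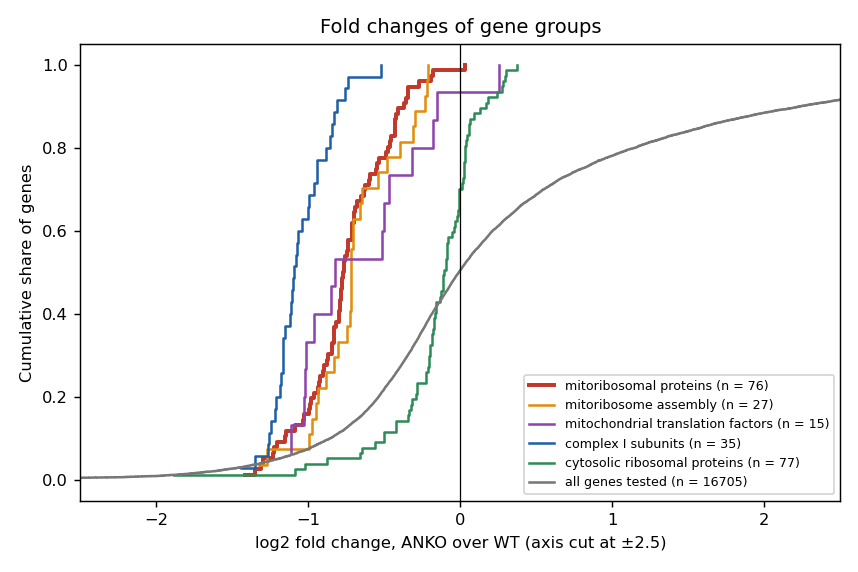
Cumulative share of genes (y axis) by log2 fold change, ANKO over WT (x axis, cut at both ends). Curves show 76 mitoribosomal protein genes, 27 assembly factors, 15 genes listed as translation factors, 35 complex I subunits, 77 cytosolic ribosomal proteins and all 16705 genes tested. The mitoribosomal median (-0.77) lies between those of complex I (-1.09) and the cytosolic ribosome (-0.11). At the lower end the curves do not keep this order.

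The muscle marker level moved with genotype, and when it was added as a covariate 19 of the 76 genes fell, 10 of the large and 9 of the small subunit, and 0 rose. In that fit 10.3% of all genes fell. The median fold change of the ribosomal genes was -0.56, 73 of 76 values were negative, and the median standard error was 0.24 against 0.15 without the covariate. The 19 genes, all among the 70, included Mrps35, Mrps36, Mrpl9, Mrps31, Mrps16, Mrpl3, Mrpl45 and Mrps9. WT3 and WT4 had the least muscle RNA, and without both 54 of the 76 genes fell, all among the 70, against 22.3% of all genes. Their median was then -0.68. With library totals in place of scaled sizes, the median of all genes moved to 0.17 and that of the ribosomal genes to -0.60, and 63 genes fell.

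Many of the genes lie head to head with a neighbour, an arrangement in which one stretch of DNA can serve as promoter for both. A protein-coding gene on the other strand started within 1000 bp in 34 of the 78 genes (43.6%), against 10.9% of 21474 protein-coding genes in the files. Mrpl46 and Mrps11 form such a pair with each other, at -0.93 and -0.72, and share 173 exon bases. The gap between starts is negative where the genes overlap there, as in this pair (-412 bp), Mrpl48 with Rab6a (-891 bp) and Mrpl43 with Twnk (-779 bp). In such pairs no stretch of DNA lies between the genes, and use of a common promoter was not tested in any pair. Of 30 tested partners outside the ribosome 15 fell, 3 rose and 12 missed the threshold, with a median of -0.46. Among 2070 other tested genes with a divergent partner, 40.8% fell, with a median of -0.23, and the partners' difference from these was not tested.

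Of the 15 partners that fell, 5 are given with their roles, chosen after their values were seen. Ndufb5, a complex I subunit beside Mrpl47, was at -1.16, and Ndufs6, another beside Mrpl36, at -0.998. Twnk, the mitochondrial DNA helicase beside Mrpl43, was at -1.28. These pairs share 616, 30 and 507 exon bases, so their reads may be mixed. Sars2, the mitochondrial seryl-tRNA synthetase beside Mrps12, was at -0.53, and Ptcd2, an RNA-binding protein beside Mrps27, at -0.59. The other 10 were Zfp661, Ash1l, Helq, Rab6a, Apba3, Tcp1, Eme2, Ppp1r10, Tmem63b and Klc4, from -1.12 (Eme2) to -0.43 (Rab6a). Among these Rab6a shares 708 exon bases with Mrpl48, Ash1l 352 with Dap3, Tcp1 141 with Mrpl18 and Tmem63b 106 with Mrpl14, and their reads may be mixed too. The 3 partners that rose while their ribosomal neighbour fell were Mtbp (0.75, beside Mrpl13 at -0.72), Pnpla7 (0.55, beside Mrpl41 at -0.60) and Mitd1 (0.38, beside Mrpl30 at -0.83). Mitd1 averaged 12.3 CPM in ANKO and 9.39 CPM in WT (edgeR SE 0.14, adjusted p = 0.0406), and its start lies 66 bp from that of Mrpl30. Mtbp and Mrpl13 share 330 exon bases, so the same holds for them.

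**Figure D5:**
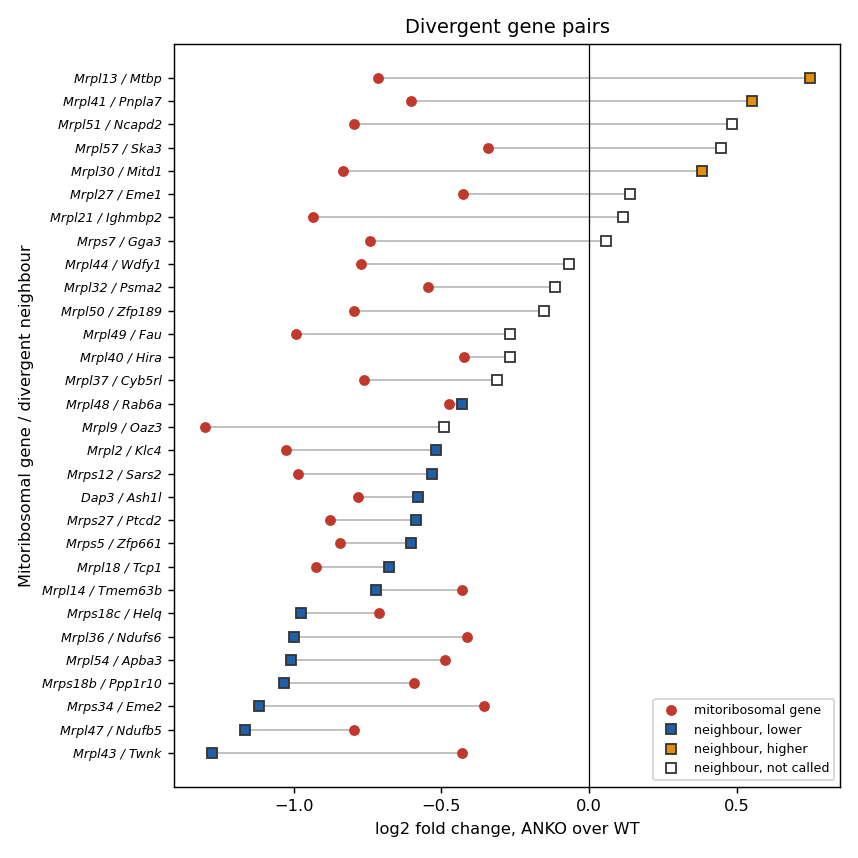
Log2 fold change, ANKO over WT (x axis), of 30 mitoribosomal protein genes (red circles) and of the neighbour that starts head to head with each (squares: blue lower, orange higher, white not called), 1 pair a row, ordered by the neighbour. The ribosomal genes all lie left of 0, and 15 neighbours lie left of it with a call.

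Promoters of 68 of the 78 genes were found in RefSeq (GRCm38.p6), as windows of 250 bases before to 50 after the start. They were searched on both strands for 3 motifs of factors known to act on nuclear genes for mitochondria or on housekeeping promoters. GCGCNTGCG, the core of the NRF1 motif, was found in 18 (26.5%), against 9.68% of 17492 protein-coding genes and 6.31% of all 32851 promoters of this length. CCGGAAG, the core bound by ETS factors such as GABPA, was found in 25 (36.8%), against 12.9% and 8.86%. AAGATGGCG, the core of the YY1 motif, was found in 8 (11.8%), against 2.14% and 1.403%. At least 1 of the motifs was in 42 promoters (61.8%), against 21.9% and 14.9%. The windows were also richer in G and C, with a median of 58.8% against 56.3%, and in CpG, with a median of 21.5 against 13 per window, over protein-coding genes. A promoter with 2 motifs counts for both.

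Among the tested genes, the fold change was also read by match. The median log2 fold change was -0.76 in 18 genes with an NRF1 match and -0.77 in 48 without, -0.71 in 23 with an ETS match and -0.78 in 43 without, and -0.74 in 8 with a YY1 match and -0.78 in 58 without. These are descriptions, with no test. A match is a run of letters and not a shown binding site. The following windows of 90 bases before to 30 after the RefSeq start, all on the plus strand, were chosen after values were seen, to show each motif in genes described here, with matches on either strand in capitals.
NRF1 is matched in Mrps9 (chr1:42851143-42851262; log2 fold change -0.90, SE 0.08, adjusted p = 1.24e-05, edgeR) and in the stalk gene Mrpl12 (chr11:120484547-120484666).
Mrps9: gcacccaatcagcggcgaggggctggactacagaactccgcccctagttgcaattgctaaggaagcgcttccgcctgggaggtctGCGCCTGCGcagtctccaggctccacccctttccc
Mrpl12: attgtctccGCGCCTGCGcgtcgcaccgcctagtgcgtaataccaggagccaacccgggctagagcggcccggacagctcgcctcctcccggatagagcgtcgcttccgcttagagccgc
The ETS core is matched in Mrpl3 (chr9:105053178-105053297; log2 fold change -1.09, SE 0.11, adjusted p = 1.89e-05, edgeR), a conserved large subunit protein, in Mrpl34 (chr8:71464836-71464955), the highest gene per length in WT, and, on the minus strand at 2 places, in Mrpl52 (chr14:54426819-54426938), which missed the threshold.
Mrpl3: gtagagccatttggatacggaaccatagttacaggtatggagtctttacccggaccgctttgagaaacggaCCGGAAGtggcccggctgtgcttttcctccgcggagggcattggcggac
Mrpl34: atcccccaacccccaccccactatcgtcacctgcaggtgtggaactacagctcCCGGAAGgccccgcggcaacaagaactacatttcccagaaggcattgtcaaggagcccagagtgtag
Mrpl52: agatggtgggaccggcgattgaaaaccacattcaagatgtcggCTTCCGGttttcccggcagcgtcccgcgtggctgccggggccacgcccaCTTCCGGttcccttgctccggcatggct
Both the ETS core and the YY1 motif are matched in Mrps18a (chr17:46110914-46111033) and in Mrps27 (chr13:99344696-99344815), which fell together with its neighbour Ptcd2.
Mrps18a: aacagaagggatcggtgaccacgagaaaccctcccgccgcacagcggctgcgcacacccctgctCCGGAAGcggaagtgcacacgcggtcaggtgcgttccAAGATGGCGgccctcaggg
Mrps27: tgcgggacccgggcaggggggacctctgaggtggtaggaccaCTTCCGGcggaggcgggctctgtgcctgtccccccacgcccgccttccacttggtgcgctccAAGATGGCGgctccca
Mrpl30 (chr1:37890387-37890506), with an NRF1 match that begins 83 bases before its start, fell while Mitd1 rose.
Mrpl30: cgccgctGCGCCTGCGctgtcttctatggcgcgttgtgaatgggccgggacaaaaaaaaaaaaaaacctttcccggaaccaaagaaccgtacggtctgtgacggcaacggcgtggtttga
The windows of Mrpl34 and Mrpl52 hold the same ETS core, and their genes were at -1.21 and -0.18.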

How the data were processed

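Per the labels' protocols, brown adipose tissue of 8 mice was flash-frozen and its total RNA was treated with Ribo-Zero Gold to remove rRNA. The submitters' processing notes name STAR 2.0.4b, Subread, featureCounts 1.45 and GRCm38. How strand and multi-position reads were handled is not given in the sources used here. For each gene and library the authors deposited RPKM and CPM values beside whole-number counts. Both scaled values were checked to follow from the counts and gene lengths within 1e-09.

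Symbols came from GENCODE M21 by gene ID, which matched 40340 of 41388 genes. The 355 rRNA rows entered neither library sizes nor tests; they took 0.801% to 1.13% of an ANKO library and 2.83% to 3.53% of a WT library. Counts were fitted with edgeR 4.0.16 in R 4.3.3 (filterByExpr by group, TMM, robust quasi-likelihood fit, no covariate), 4 ANKO against 4 WT, with Benjamini-Hochberg adjustment over 16705 genes and a threshold of 0.05. The biological coefficient of variation was 20.6%. CPM and RPKM in the text were recomputed from counts with the scaled library sizes, except for mitochondrial rRNA. The labels give no batch, and replicates are mice. No pair of libraries agreed within sampling noise, with a lowest chi-square per degree of freedom of 6.63 (ANKO1 and ANKO2). The limits for a count of 0 cover counting error only, since PCR copies are not independent molecules. The edgeR SE, also drawn as bars, is the absolute log2 fold change divided by the square root of the quasi-likelihood F statistic. It thus includes variation between mice.

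The members and lists were chosen with earlier results of these data known. Values in full are given for the 6 lowest and 4 highest fold changes and the 3 highest genes per length in each subunit. They are also given for the stalk, the Mrps18 paralogs, Mrps30, Mrps36, Dap3 and every gene not called or not tested. From each partner list come the 2 called genes with the smallest adjusted p in the commoner direction. Other genes, the divergent pairs and the promoter motifs were picked after values were seen. Alternatives were other scalings, filters and thresholds, DESeq2 1.42.0, limma-voom (limma 3.58.1), a replicate block, a muscle covariate, thinned counts, other subunit assignments and libraries left out. Figures were drawn with matplotlib 3.10.9.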

Additional observations from a re-analysis of the deposited data

Results flagged for a closer look

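In 70 groups of 4 libraries, for the genes described in full and the summed measures, 7 values stood far from the other 3 of their group by Dixon's test, and chance alone gives about 1 in 20. In ANKO4 Mrps34 was low at 7.29 CPM, and the ratio of mitoribosomal genes to complex I was high at 0.410. The large minus small difference of median log2 values was also low in ANKO4, at 4.74e-06, against 0.0432 to 0.0476 in the other 3 ANKO libraries. In WT1 Mrps31 was low at 46.8 CPM and Mrps16 was low at 43.6 CPM. The other 2 rest on few counts, with Mrpl53 at 0.0765 CPM in ANKO1, where the other ANKO libraries had 0 counts, and Mrps23 at 0.458 CPM in WT3.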

How the results depend on the processing

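The counts of 70 genes lower, 44 in the large and 26 in the small subunit, and 0 higher kept within 1.5 times of these values in every alternative but one. With the muscle markers as a covariate 19, 10 and 9 genes were lower. Elsewhere 54 (without WT3 and WT4) to 73 (without WT1) genes were lower, with 56 in thinned counts, 59 at an adjusted p under 0.01, 63 on library totals and 71 by DESeq2. Calls over all genes changed too. In either direction they numbered 9726 in the main fit, 8283 without WT3 and WT4 and 10467 without WT1. There were 5618 in thinned counts, 8837 on library totals and 9888 by DESeq2, and none is given for an adjusted p under 0.01. Replicate numbers did not pair the mice (correlations of deviations 0.11, -0.01, 0.07 and -0.05), and with the number as a replicate block 66 genes were lower, the lost calls being Mrpl14, Mrpl27, Mrpl54 and Mrpl57. Leaving out 1 library gave 63 to 73 genes. The large minus small difference of medians (0.01) became -0.0283 in thinned counts, 0.0955 with the covariate, 0.0571 without WT3 and WT4, and -0.0269 to 0.0521 with 1 library left out. Signs turned for genes not called. With the covariate Mrps6 was at 0.0987, Mrpl52 at 0.0466, Mrps22 at 0.125 and Mrpl23 at -0.101. In thinned counts Mrps22 was at 0.0326 and Mrpl23 at -0.0580. Mrpl23 was at -0.0251 without a filter, and from -0.119 to 0.125 with 1 library left out, below 0 without ANKO4, WT1 or WT4. The cause was not tested. Mrpl53 and Mrps23, with at most 9 and 15 counts in any library, were too low to test under the filter.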
